A study of Homo sapiens with 6 samples.

Results

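Interferon response genes are the genes through which a cell detects, transmits and answers an interferon signal, and 45 of them were followed here among 20037 protein-coding genes in ATAC-seq peak lists of the human multiple myeloma line ARP1. They were taken from a fixed list of receptors, transcription factors, sensors of viral RNA and induced effectors, and all 45 were found in the RefSeq gene table of GRCh38.p14. The lists came from 3 libraries of cells with a KDM6A knockout (KO) and 3 libraries of wild-type cells (WT). KDM6A is a histone demethylase that removes a repressive methyl mark and works with enhancer complexes, multiple myeloma is a cancer of plasma cells, and the submitters asked how the protein shapes accessible DNA. Both genotypes are the same cell line, no further treatment is given for either, and the labels call the libraries of a genotype biological replicates but name no cultures or clones, so that the spread between them may be partly technical.

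Type I interferons bind the receptor made of IFNAR1 and IFNAR2, and interferon gamma binds IFNGR1 and IFNGR2. The receptors act through STAT and IRF transcription factors, which bind short DNA motifs in target promoters: the interferon-stimulated response element (ISRE), read by IRF proteins and by the complex of STAT2 with IRF9, and the gamma-activated site (GAS), read by STAT dimers. In plasma cells as in other cells many of the effector genes are held at a low level until the signal comes, while the receptors and several of the factors are present beforehand.

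A gene was called open where a peak of the list in question reached to within 1 kb of either end of its record. The lists differ in length, with 33055 to 37314 peaks in KO and 54443 to 56048 in WT once the 1 mitochondrial peak of each list was set aside. The weakest listed peak stood at a fold over background of 3.23 ± 0.12 in KO and 2.81 ± 0.10 in WT (SD, n = 3). KDM6A itself had a gene-end peak in 3 of 3 KO and 3 of 3 WT lists, which does not test the edit. Of 10 plasma cell markers 7 were open in all 6 lists, against 54.7% of all protein-coding genes, while JCHAIN was open in 0 KO and 3 WT lists, SLAMF7 in 0 KO and 2 WT lists and PRDM1 in 1 KO and 3 WT lists. The call for PRDM1 concerns the ends of its record, since its RefSeq start had a peak within 1 kb in all 6 lists. None of 4 myeloid markers was open in any list. Of 4 T cell markers, CD3E and CD8A were open in all 6 lists, and of 3 B cell, 3 epithelial and 2 erythroid markers none was. Some of these were open in part of the lists: CD2 in 2 WT, PAX5 in 2 KO and 3 WT, KRT8 in 1 WT, and HBA1 in 3 KO and 2 WT lists.

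Of the 4 receptor genes 3, most transcription factor genes and the RNA sensor genes were open in both genotypes, whereas the chemokine genes and most GBP genes were closed in both. Of the 45 genes 23 (51.1%) were open in all 6 lists, against 54.7% of all protein-coding genes, and 13 (28.9%) were closed in every list, against 35.3%. A further 8 (17.8%) were open in part of the lists, against 8.95% of all genes, 1 was open in all WT and no KO lists (WT-only, 1 of the 26 genes open in 3 WT lists, against 1.75% of all such genes), and none was KO-only (0 of 23, against 0.0453%). By library, 24, 26 and 25 of the genes were open in KO and 29, 29 and 30 in WT, and the genotypes did not overlap. The same held over all protein-coding genes, of which 57.2%, 58.4% and 58.1% were open in KO and 60.6%, 61.9% and 61.1% in WT. Of the 8 genes open in part of the lists, none was open in more KO lists, 7 were open in more WT lists and XAF1 was open in 1 of each. Over all 1794 partly open genes the shares were 15.8% in more KO lists, 72.1% in more WT lists and 12.04% in as many of each. With every list cut to its strongest 33055 peaks the counts were 24, 25 and 25 in KO and 25, 26 and 24 in WT, and the genotypes overlapped. At that length 22 genes were open in all 6 lists (48.9%, against 51.9% of all genes), 17 were closed (37.8%, against 38.6%) and 5 were partly open (11.1%, against 8.65%). None was WT-only (0 of 24, against 0.547%) and 1, MX2, was KO-only (1 of 23, against 0.914%). A peak in the window of a gene need not belong to it: 12 of the 45 genes, among them STAT2 (APOF) and IFIH1 (GCA), and 9 of the 23 open ones also had another gene's end there. These counts take the windows of both ends, whether or not the peak lay in the shared one.

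**Figure D1:**
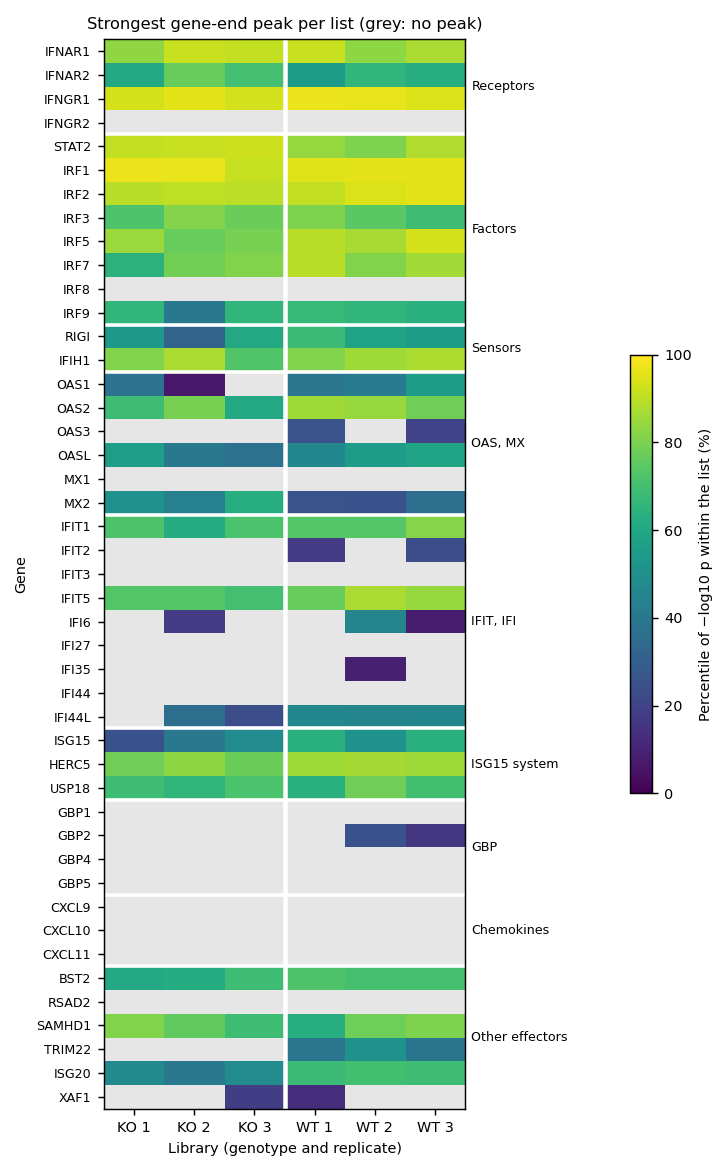
Strength of the strongest gene-end peak of each of the 45 genes (rows, by role) in each library (columns, KO left of WT), as the percentile of its −log10 p-value within that library's full list, where 100% is the strongest peak and grey means no peak. The 3 chemokine genes are grey throughout, IRF1 and IFNGR1 are above 90% in all 6 libraries, and TRIM22 has values in WT only.

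The promoter sequences of a few of these genes show what the open and closed classes share. Stretches are the 250 bases before the RefSeq start of GRCh38.p14, 5′ to 3′ on the gene's strand, and capitals mark matches to the ISRE core (GAAA, 2 bases of any kind, GAAA, or on the other strand TTTC, 2 bases of any kind, TTTC) or to the GAS core (TTC, 3 bases of any kind, GAA, which reads the same on both strands). IFIT1 (chr10:89392373-89392622, plus strand) and IFIT3 (chr10:89327747-89327996, plus strand) lie in the same gene cluster. They are shown because both hold a pair of ISRE cores while only IFIT1 had a gene-end peak:
IFIT1: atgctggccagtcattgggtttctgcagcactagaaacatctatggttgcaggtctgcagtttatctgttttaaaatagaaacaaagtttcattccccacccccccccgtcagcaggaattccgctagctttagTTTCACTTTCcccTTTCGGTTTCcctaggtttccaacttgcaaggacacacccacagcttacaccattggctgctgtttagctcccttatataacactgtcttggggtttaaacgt
IFIT3: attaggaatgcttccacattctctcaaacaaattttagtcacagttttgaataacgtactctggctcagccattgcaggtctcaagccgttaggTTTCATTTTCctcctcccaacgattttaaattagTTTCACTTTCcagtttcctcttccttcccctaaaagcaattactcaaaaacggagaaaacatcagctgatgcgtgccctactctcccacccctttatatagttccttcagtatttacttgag
ISG15 (chr1:1013247-1013496, plus strand) and CXCL10 (chr4:76023498-76023747, minus strand) show an open and a closed gene with an ISRE core, overlapping in the first and far from the start in the second:
ISG15: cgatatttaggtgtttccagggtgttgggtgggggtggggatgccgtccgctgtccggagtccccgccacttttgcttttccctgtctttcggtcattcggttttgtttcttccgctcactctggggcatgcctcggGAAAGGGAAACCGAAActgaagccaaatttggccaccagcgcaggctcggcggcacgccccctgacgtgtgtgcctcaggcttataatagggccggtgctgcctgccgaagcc
CXCL10: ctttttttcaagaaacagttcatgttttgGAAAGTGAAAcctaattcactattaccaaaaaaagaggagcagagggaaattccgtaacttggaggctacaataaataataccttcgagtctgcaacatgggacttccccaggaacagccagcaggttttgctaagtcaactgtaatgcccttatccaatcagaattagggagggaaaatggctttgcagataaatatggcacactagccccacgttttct
IRF1 (chr5:132490774-132491023, minus strand) had the highest mean percentile of the 45 genes and holds a GAS core. STAT2 (chr12:56360108-56360357, minus strand) passed the rank test given below only with all libraries kept, and holds neither motif in this window:
IRF1: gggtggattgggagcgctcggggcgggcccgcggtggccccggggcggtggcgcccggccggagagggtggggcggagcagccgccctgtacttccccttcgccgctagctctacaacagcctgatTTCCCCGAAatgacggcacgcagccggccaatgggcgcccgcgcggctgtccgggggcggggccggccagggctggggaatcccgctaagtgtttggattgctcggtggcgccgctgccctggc
STAT2: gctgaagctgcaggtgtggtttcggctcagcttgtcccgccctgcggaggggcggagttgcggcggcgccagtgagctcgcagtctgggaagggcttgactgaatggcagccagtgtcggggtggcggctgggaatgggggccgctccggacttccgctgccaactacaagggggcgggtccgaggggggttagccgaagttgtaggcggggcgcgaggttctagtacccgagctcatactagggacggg

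ISRE cores were frequent in these promoters whether they were open or not. Among the 33 genes with an entry in the RefSeq promoter table, 18 (54.5%) held an ISRE core in the 300 bases from 250 before to 50 after the start, compared with 503 of 15842 protein-coding promoters (3.18%). GAS cores were found in 7 (21.2%) of the 33 and in 1104 (6.97%) of all, and the motifs overlapped in BST2 and IFI27. A peak within 1 kb of the start was present in all 6 lists for 15 of the 33 (against 56.1% of all genes with a start), in part of the lists for 7 and in none for 11 (against 36.2%). ISRE cores occurred in 7 of the 15 open, 3 of the 7 partly open and 8 of the 11 closed promoters. CpG content ran the other way: the observed over expected CpG ratio had a median of 0.75 in the open, 0.29 in the partly open and 0.27 in the closed promoters, against 0.86, 0.65 and 0.34 over all promoters of these classes. Exceptions ran in both directions, since the closed starts of RSAD2 and IFNGR2 had ratios of 1.06 and 0.93, and the open starts of BST2 and IFIT1 had 0.096 and 0.26. These are descriptions of a chosen set of genes, and a match to a motif is not a bound site.

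**Figure D2:**
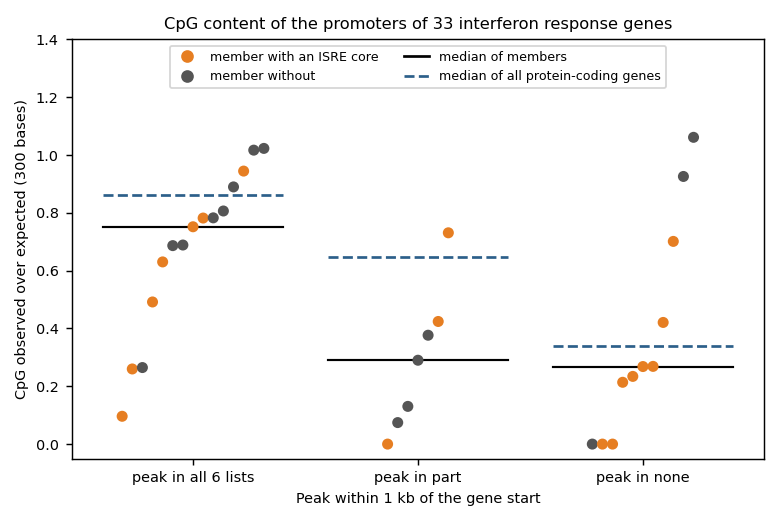
Observed over expected CpG ratio in 300 bases around the start (vertical axis) of the 33 interferon response genes with a promoter entry, by whether all 6, some or none of the libraries had a peak within 1 kb of the start. Each point is a gene, orange with an ISRE core and grey without. The median of the genes (solid line) is 0.75, 0.29 and 0.27, and the median over all protein-coding genes (dashed line) is 0.86, 0.65 and 0.34.

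The receptor genes were open in both genotypes with the exception of IFNGR2. IFNGR1, the ligand-binding chain for interferon gamma (chromosome 6, 137197484 to 137219385, GRCh38), had a gene-end fold of 19.9, 24.6 and 18.5 in KO and of 27.1, 30.1 and 22.2 in WT. IFNAR1 (chromosome 21, 33324395 to 33359864) had 13.8, 19.7 and 16.8 in KO and 18.2, 15.6 and 15.5 in WT. These 2 receptor genes thus overlapped between genotypes in fold, and both lay above the 80th percentile of every list. IFNAR2, the other chain of the type I receptor (chromosome 21, 33229938 to 33265664), had 8.43, 12.1 and 9.26 in KO and 6.62, 9.48 and 7.96 in WT. IFNGR2, the accessory chain of the gamma receptor (chromosome 21, 33402882 to 33437516), had no gene-end peak in any list, and the summit nearest to its RefSeq start lay a median of 20192 bases away in KO and 19989 in WT. Within 50 kb it had 5 merged regions, of which 2 were called in all 6 lists, one of them inside the gene at 33434704 to 33435289.

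Of the 8 transcription factor genes 7 were open in all 6 lists. IRF1, an activator induced by interferon gamma (chromosome 5, 132481609 to 132490773), had a fold of 24.98, 25.9 and 17.1 in KO and of 22.4, 28.7 and 23.7 in WT. IRF2, its antagonist at many targets (chromosome 4, 184387729 to 184474550), had 16.9, 18.7 and 16.3 in KO and 17.5, 26.7 and 23.9 in WT. Both were among the 5 open genes with the highest mean percentile, together with IFNGR1, IFNAR1 and STAT2. STAT2, the partner of IRF9 in the type I response (chromosome 12, 56341597 to 56360107), had 17.5, 19.7 and 17.96 in KO and 13.7, 14.3 and 16.1 in WT. IRF9, the DNA-binding part of that complex (chromosome 14, 24161265 to 24166565), had 9.33, 6.23 and 8.42 in KO and 8.54, 9.48 and 8.17 in WT.

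IRF3 and IRF7 are the factors that switch on interferon genes after a virus is sensed, and both were open throughout. IRF3 (chromosome 19, 49659572 to 49665857) had a fold of 10.5, 13.8 and 10.9 in KO and of 12.2, 11.9 and 9.22 in WT, and IRF7 (chromosome 11, 612555 to 615950) had 9.03, 12.8 and 12.1 in KO and 16.4, 14.6 and 14.9 in WT. IRF5, an activator of inflammatory genes (chromosome 7, 128937032 to 128950038), had 14.4, 12.1 and 11.5 in KO and 16.9, 17.99 and 20.5 in WT. The 2 genotypes overlapped for IRF3, and the folds of IRF5 and IRF7 ran higher in WT. These folds, as deposited, also ran lower in KO over all genes open in all 6 lists (median 12.7 ± 0.91 in KO and 15.3 ± 1.92 in WT). IRF8, a factor of B cells and myeloid cells (chromosome 16, 85899162 to 85922609), was closed at both ends of its record in all lists. Its RefSeq start lies 3668 bases inside the record, and there WT replicates 2 and 3 had peaks of fold 3.403 and 3.77, while no KO list had one.

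The sensors of viral RNA in the cytoplasm were open in all 6 lists. IFIH1, which encodes MDA5 (chromosome 2, 162267074 to 162318684), had a fold of 12.9, 16.7 and 9.82 in KO and of 12.4, 17.3 and 15.7 in WT. RIGI (chromosome 9, 32455302 to 32526196) had 7.52, 5.57 and 7.58 in KO and 8.76, 8.02 and 6.91 in WT, and was among the 5 open genes with the lowest mean percentile. Both genes overlapped between genotypes.

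The antiviral effectors were mixed within their own clusters. Of the oligoadenylate synthetase gene family, OAS2 and OASL were open in all 6 lists, OAS1 in 2 KO and 3 WT lists, and OAS3 in no KO and 2 WT lists. OAS1 had a fold of 6.02 and 3.93 in KO replicates 1 and 2 and of 5.13, 5.83 and 6.91 in WT, and OAS3 had 4.27 and 3.98 in WT replicates 1 and 3. OASL had 7.82, 6.23 and 5.33 in KO and 5.77, 7.53 and 7.33 in WT. Of the IFIT genes, whose products bind viral RNA, IFIT1 and IFIT5 were open in all 6 lists. IFIT2 had a fold of 3.84 and 4.19 in WT replicates 1 and 3 only, and IFIT3 was closed at both ends. Inside IFIT3, a region at 89331832 to 89334368 was called in all 6 lists cut to equal length (fold 8.13, 7.21 and 6.73 in KO and 7.47, 7.05 and 8.59 in WT). IFI44L was open in 2 KO lists (5.90 and 4.49) and 3 WT lists (5.77, 6.32 and 5.87), while its neighbour IFI44 was closed. IFI6 had 4.59 in KO replicate 2 and 6.32 and 3.35 in WT replicates 2 and 3, and IFI35 had 3.65 in WT replicate 2 only. XAF1, a gene linked to cell death, had 4.21 in KO replicate 3 and 3.63 in WT replicate 1. In each of these partly open genes at least 1 listed peak had a fold below 5, close to the limit of the lists.

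TRIM22, an antiviral ubiquitin ligase gene (chromosome 11, 5689790 to 5710863), was the WT-only gene. Its lower end carried peaks of fold 5.13, 7.05 and 5.24 in WT, at the merged region 5689617 to 5690070, and no peak in KO. With lists of equal length it was open in 2 WT lists. It was WT-only also with windows of 500 bp and 2 kb and when any single library was left out. Leaving out WT replicate 1 made GBP2 WT-only as well, and leaving out WT replicate 2 did so for IFIT2 and OAS3, genes picked after their values were seen.

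The GBP genes, which encode guanylate-binding GTPases, and the CXCL9, CXCL10 and CXCL11 genes, which encode chemokines that attract T cells, are classic targets of interferon gamma, and nearly all were closed in both genotypes. GBP1, GBP4 and GBP5 were closed in every list, and GBP2 had peaks of fold 4.62 and 3.77 in WT replicates 2 and 3. GBP4 had no merged region within 50 kb in any list. The chemokine genes, which lie side by side on chromosome 4, had a single merged region between them, at 75990426 to 75991258 inside SDAD1, and it was called in all 6 lists (fold 6.32, 7.54 and 7.30 in KO and 7.05, 8.51 and 6.50 in WT). RSAD2, which encodes viperin (chromosome 2, 6865885 to 6898239), MX1 and IFI27 were also closed at their ends in all lists.

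ISG15 and the genes around its use were open in all 6 lists. ISG15 is a ubiquitin-like protein, HERC5 attaches it to its targets and USP18 removes it. ISG15 (chromosome 1, 1013497 to 1014540) had a fold of 5.12, 6.23 and 6.17 in KO and of 7.90, 7.05 and 8.17 in WT, and belonged to the 5 lowest open genes by percentile. HERC5 ranged from 10.9 to 14.4 in KO and from 14.3 to 17.7 in WT, and USP18 from 9.51 to 9.93 in KO and from 7.90 to 13.4 in WT. The remaining open genes, BST2, which tethers virus particles to the cell, SAMHD1, which depletes nucleotides, IFIT1, IFIT5 and OAS2, had folds between 7.58 and 13.1 in KO and between 7.69 and 18.2 in WT.

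ISG20, an exonuclease gene (chromosome 15, 88635632 to 88656483), shows how the record's end and the start can differ. Its gene-end peak had a fold of 6.92, 6.23 and 6.17 in KO and of 8.76, 10.5 and 9.22 in WT. Its RefSeq start lies 3384 bases inside the record, where the fold was 23.5, 22.6 and 22.2 in KO and 31.2, 46.2 and 34.4 in WT, at or above the 94.4th percentile of each list. KO lay below WT at both places, yet neither region passed the test of ranks described next (adjusted p = 0.31 at the end and 0.16 at the start, limma).

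To compare strength over the same regions in every list, all 23589 merged regions called in all 6 lists were ranked within each library by −log10 p-value. The ranks were turned into normal scores, and limma was fitted to all of them. List length still decided which regions entered: one weak in WT did so only where the shorter KO lists held it. A shift of 1 is 1 standard deviation of that score. Over all regions 963 (4.08%) ranked higher and 723 (3.06%) lower in KO at an adjusted p under 0.05. Of the 89 such regions within 50 kb of the interferon response genes 7 ranked higher and 1 lower. Of the 23 at their gene ends 3 ranked higher and none lower (5 at an unadjusted p under 0.05), against 5.34% and 1.07% of the 9684 shared regions at ends of all protein-coding genes. The median shift was 0.18 at the 23 ends and 0.094 at the ends of all protein-coding genes. The shift ran with position, from a median of −0.20 on chromosome 4 to 0.56 on chromosome 22, so the median shift of the other shared regions within 1 Mb is given beside each call.

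**Figure D3:**
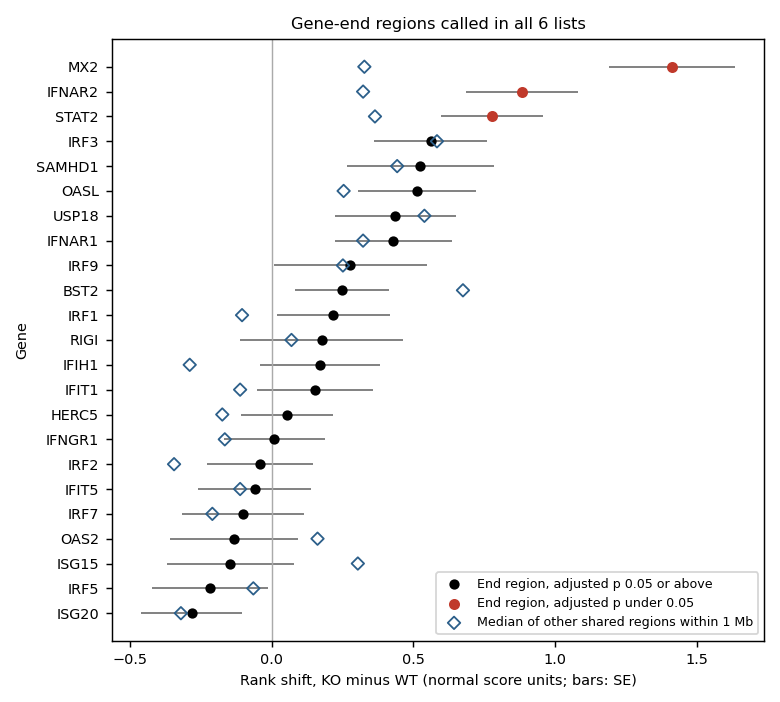
Rank shift of the 23 gene-end regions called in all 6 lists, KO minus WT, in normal score units (horizontal axis, points with SE bars), with the median shift of the other shared regions within 1 Mb (diamonds). Red points, at MX2, IFNAR2 and STAT2, have a limma adjusted p under 0.05 and lie to the right of their diamonds.

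MX2 had the largest shift and the lowest adjusted p of the 23 gene ends. It encodes a dynamin-like GTPase that restricts HIV and other viruses at the nuclear pore (chromosome 21, 41362027 to 41409393). The region over its lower end, at 41361396 to 41362803, had a fold of 7.22, 6.56 and 7.86 in KO and of 4.27, 4.62 and 5.03 in WT. Among the shared regions it stood at the 33.8th, 20.6th and 43.5th percentile in KO and at the 2.19th, 2.17th and 5.46th in WT. A region so weak in WT entered the shared set only where the shorter KO lists also held it. Whether this favoured a positive shift here or at the TMPRSS2 region below was not tested. The shift was 1.41 (SE 0.22, adjusted p = 0.021, limma), against a median of 0.33 over the 10 other shared regions within 1 Mb. With lists of equal length the region remained in all 3 KO lists and was in no WT list. That cut is made on the same −log10 p-values, so here and for the TMPRSS2 region it is no separate evidence. MX1, its neighbour and the better-known antiviral MX gene (chromosome 21, 41420558 to 41459214), had no gene-end peak in any list. Beyond MX1, inside TMPRSS2, a region at 41477506 to 41479041 behaved like that at MX2, with a fold of 5.72, 7.54 and 6.73 in KO and of 4.70, 4.86 and 3.56 in WT and a shift of 1.399 (SE 0.24, adjusted p = 0.025), and it was likewise KO-only with lists of equal length. These 2 regions also kept an adjusted p of 0.047 and 0.041 when the median of the neighbours within 1 Mb was subtracted in each library, a setting chosen after the data were seen, under which 0.308% of all regions ranked higher and 0.217% lower.

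**Figure D4:**
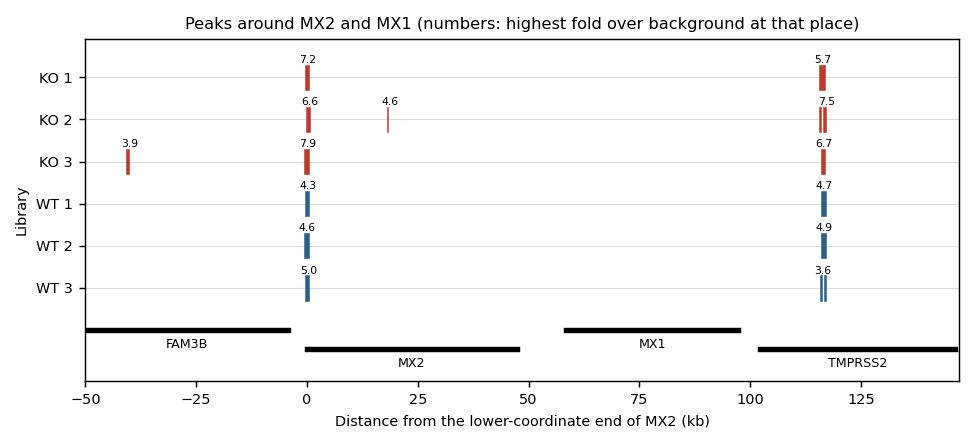
Peaks of each list (boxes, KO above WT) against distance in kb from the lower end of MX2, with gene records as black bars and the highest fold over background at each place as a number. The box at MX2 carries 7.2, 6.6 and 7.9 in KO and 4.3, 4.6 and 5.0 in WT, and none lies over MX1.

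IFNAR2 and STAT2 ranked higher in KO along with their surroundings. The IFNAR2 end region, at 33229079 to 33231556, stood at the 45.7th, 63.5th and 55.0th percentile of shared regions in KO and at the 15.8th, 28.4th and 23.8th in WT, a shift of 0.88 (SE 0.20, adjusted p = 0.037). The 22 other shared regions within 1 Mb had a median shift of 0.32, with 18 above 0. The STAT2 end region, at 56358612 to 56360846, stood at the 87.0th, 86.8th and 88.4th percentile in KO and at the 64.2nd, 55.9th and 72.4th in WT, a shift of 0.78 (SE 0.18, adjusted p = 0.040). Around it the median was 0.36 over 49 regions, 45 of them above 0. With the neighbours subtracted neither passed. The shift was then 0.43 for IFNAR2 (SE 0.25, adjusted p = 0.43, limma) and 0.44 for STAT2 (SE 0.22, adjusted p = 0.36). That fit called 0.308% of all regions higher and 0.217% lower, so it cannot show that a shift relative to the surrounding regions is absent.

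Away from the gene ends 4 more regions passed besides the one in TMPRSS2. A site inside the IRF2 record, at 184417011 to 184418330, ranked lower in KO, with a fold of 4.51, 5.57 and 5.89 in KO and of 10.04, 11.7 and 11.1 in WT and a shift of −1.08 (SE 0.24, adjusted p = 0.037), although the end region of IRF2 shifted by only −0.040. The 38 other regions within 1 Mb had a median of −0.24, and the adjusted p with neighbours subtracted was 0.18. A region near IFI35, in RUNDC1 at 42980019 to 42981328 of chromosome 17, ranked higher (shift 1.15, SE 0.24, adjusted p = 0.033, neighbours 0.56). Both regions near IRF3, in SCAF1 at 49639598 to 49642747 and in PRMT1 at 49675394 to 49678709 of chromosome 19, also ranked higher (shifts 0.73 and 0.76, adjusted p = 0.039 and 0.049), and their 66 neighbours had a median of 0.57, with 63 above 0. With the neighbours subtracted these 3 had adjusted p-values of 0.33, 0.89 and 0.85.

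**Figure D5:**
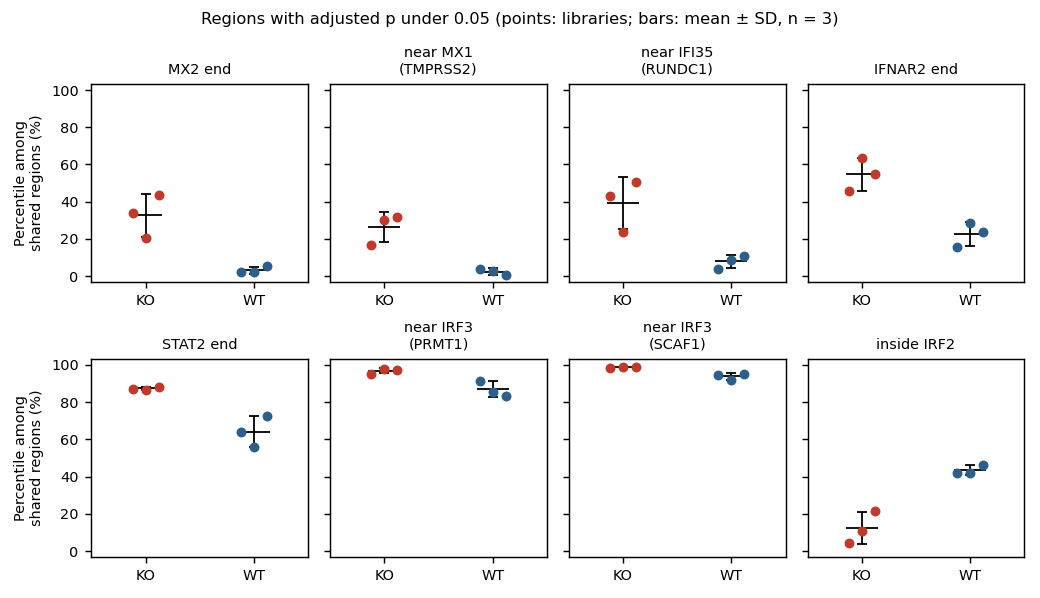
Percentile among the 23589 shared regions (vertical axis) of the 8 regions near interferon response genes with a limma adjusted p under 0.05, in the KO libraries (red, left) and the WT libraries (blue, right), with mean and SD (n = 3). KO is the higher in 7 panels, and the region inside IRF2 is the lower in KO. The regions were chosen by the test on these same ranks, so the separation of the genotypes is no further evidence.

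All 8 calls kept their direction in every alternative that gave a value, but they rest on 3 libraries against 3. Leaving out any WT library left 0 calls over all regions (5113 to 5969 at an unadjusted p under 0.05, limma). Over the 6 fits without a library, limma adjusted p-values ranged from 0.036 to 0.096 at MX2 and from 0.043 to 0.096 in TMPRSS2. They ranged from 0.034 to 0.12 inside IRF2 and from 0.041 to 0.12 near IFI35. STAT2 (0.069 to 0.13), IFNAR2 (0.061 to 0.13) and both regions near IRF3 (0.068 to 0.12 and 0.070 to 0.15) passed in none of the 6. Without KO replicate 1, 2 or 3 the regions near these genes that ranked higher numbered 2, 2 and 3, and those that ranked lower 0, 0 and 3.

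Around the interferon response genes few regions were missing from the knockout. Merging the lists gave 170 regions within 50 kb of the 45 genes, of which 89 were called in all 6 lists (52.4%, against 39.5% of the 43544 regions near any protein-coding gene). Of 114 called in all WT lists 7 (6.14%) were WT-only, against 13.1%, and of 92 called in all KO lists none was KO-only, against 0.256%. With lists of equal length 78 of 132 were called in all 6 (59.1%, against 51.5%), 0 of 84 were WT-only, against 4.63%, and 2 of 88 KO-only, against 2.94%, those at MX2 and TMPRSS2. Peaks within 50 kb numbered 104, 123 and 113 in KO and 134, 140 and 137 in WT, which made up 0.315%, 0.330% and 0.313% of the KO lists and 0.246%, 0.257% and 0.244% of the WT lists.

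IRF1 held 3 of the 7 WT-only regions. They lay below the gene, outside any protein-coding gene record, at 132437395 to 132438337, 132456537 to 132457637 and 132458197 to 132459485, and had WT folds of 5.61 ± 0.33, 4.35 ± 0.57 and 5.09 ± 1.14 (SD, n = 3). Of 11 regions within 50 kb of IRF1, 5 were called in all KO lists and 10 in all WT lists, against 40.4% and 59.0% of the regions near any protein-coding gene. With lists of equal length 5 of 9 were called in all KO lists and 5 in all WT lists, against 57.0% and 62.3%, and none was WT-only. The end of the gene itself did not pass the test of ranks (shift 0.22, SE 0.20, adjusted p = 0.49). The others were the end of TRIM22, a region inside RSAD2 at 6877408 to 6877995 (fold 5.77, 3.89 and 5.24 in WT), a region below IRF2 at 184382151 to 184382872 (3.84, 3.89 and 4.40 in WT) and a region in DDX24 near IFI27 at 94056581 to 94057202 (4.06, 5.10 and 3.56 in WT). Keeping only peaks of fold 4 or more gave 3 WT-only regions.

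Other genes of the pathway are read against the 54.7% of all protein-coding genes that were open in all 6 lists. Of 15 signalling and adaptor genes, such as the kinases JAK1 and TYK2 and the adaptor MAVS, 11 were open in all 6 lists and 4, TLR3, TLR7, TLR9 and IFNLR1, in part. Of 7 further negative regulators 6 were open in all 6 lists and PTPN6 in 2 WT lists. Of 26 further induced genes 20 were open in all 6 lists, 4 were closed and SP110, a nuclear body gene, was WT-only. SP110 was so at equal list length too. Among the closed genes, DDX60 nevertheless had a peak within 1 kb of its RefSeq start in all 6 lists. IFI16 had one there in all WT lists and in no KO list. The 8 ligand genes differed, with 5 closed in all lists, among them IFNB1 and IFNA2, IFNL1 open in all 6, IFNG open in 1 KO and 3 WT lists, and IFNW1 WT-only. IFNL1 was open only by the ends of its record, with no peak within 1 kb of its RefSeq start in any list. With lists of equal length IFNW1 was closed in all of them. Over all genes open in 3 WT lists 1.75% were WT-only.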

How the data were processed

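Each library has its own list of narrow peaks, so peaks were called per library. The submitters' processing notes name Trimmomatic, FastQC, MultiQC, Bowtie2, MACS2 2.1.2 and the build GRCh38, with settings not given in the sources used here. The fold (a ratio over the background of the library), the −log10 p-value and the −log10 q-value of each peak are values the authors deposited. Read depth is unknown. The deposited folds under 100 are whole steps of one size per list (to within 0.01 step), from which the background pileup was 2.31 ± 0.26 in KO and 3.52 ± 0.36 in WT (SD, n = 3).

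Gene records came from a RefSeq table of GRCh38.p14, and starts from a RefSeq promoter table that held 33 of the 45 genes. Peaks were merged at an overlap of 1 bp. Percentiles rank a list by −log10 p-value. Shared regions were ranked within libraries, turned into normal scores and fitted with limma 3.58.1 in R 4.3.3, two-sided, with Benjamini-Hochberg adjustment over all of them and a threshold of 0.05. With 3 libraries against 3 an exact permutation test of a single value cannot go below 0.1, so counts per library carry no p-value. The code was tested on simulated data. Genes and lists were chosen with earlier results of these data known. Per-library values are given for receptors, factors, sensors, genes with a genotype-specific or partial call, genes passing the fit, and the 5 highest and lowest open genes by percentile. Alternatives were stricter thresholds, equal list length, other windows, the peak summit, gene starts, leaving out each library, a replicate block and other scalings of rank.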

Additional observations from a re-analysis of the deposited data

How the results depend on the processing

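Lists of equal length changed most presence results: WT-only gene ends numbered 0 in place of 1, KO-only ends 1 in place of 0, WT-only regions within 50 kb 0 in place of 7 and KO-only regions 2 in place of 0, and KO minus WT per library was −0.33 open genes in place of −4.33 and 9 peaks in place of −23.7, a change of sign. At gene starts alone 15 of 33 genes were open in all 6 lists, 0 were WT-only and KO minus WT was −2.67. KO minus WT was −5.33 with windows of 500 bp and −2.67 at a fold of at least 4, which left 3 WT-only regions. Windows of 10 kb and 100 kb gave 2 and 16 WT-only regions, and a difference of −11.3 and −45.0 peaks. Leaving out single libraries gave 1 to 3 WT-only ends, 8 to 13 WT-only regions (12 without KO replicate 2, 13 without WT replicate 2) and 0 to 1 KO-only regions. The cause of these changes was not tested.

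In the rank fit, leaving out a library gave 0 to 604 regions higher and 0 to 575 lower in KO over all, and 0 to 3 higher and 0 to 3 lower near the interferon response genes, with fewer samples. The replicate block gave 0 higher and 0 lower in both sets (6344 at an unadjusted p under 0.05), and same-numbered libraries did not deviate together (r = −0.032, 0.0026 and −0.16 over 23589 regions), so the numbers do not pair the samples. Median-centred log2 fold gave 2909 higher and 1548 lower over all and 12 and 3 near these genes. Neighbourhood centring, chosen after the data were seen, gave 71 and 50 over all and 2 and 0 near them. Untransformed percentiles gave 4 higher and equal list length 3 higher near them.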
